A study of Mus musculus with 6 samples.

Results

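The levels of 9 interferon-stimulated genes were compared in skeletal muscle of PRR14-knockout mice, 1 month after injection of AAV, a virus used to carry genes into tissue. The genes were taken by symbol from the deposited gene table, namely Isg15, Ifit1, Ifit3, Irf7, Bst2, Ifi27l2a, Xaf1, Rtp4 and Gbp2, and all 9 of 9 were found among its 22036 genes. In one group of 3 libraries the cargo was MEF2C-GFP (MEF2C, a transcription factor of muscle genes, and the fluorescent protein GFP), and in the other group of 3 it was GFP. Every library carries the knockout and every mouse received a virus, so the comparison asks whether the cargo, not the vector, goes with a different level of these genes. No particular muscle is named, and strain, age, dose, serotype, promoter and the tissue range of the knockout were not found in the labels. No uninjected and no wild-type library was analysed here, so no level below can be set against muscle without virus. Whether each replicate is its own animal is not stated, so the p-values rest on the spread between libraries, which may be technical. Per-library values are given throughout in the order of replicates 1, 2 and 3, as normalised CPM (the usual scaled read count, on TMM-scaled library totals).

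Interferons are secreted proteins that cells release when they sense foreign nucleic acid. Type I interferons bind the IFNAR receptor, whose kinases JAK1 and TYK2 switch on a complex with STAT2 and IRF9 that binds the interferon-stimulated response element in the promoters of antiviral genes. Interferon-gamma, a product of T and NK cells, acts through IFNGR on gamma-activated sites, and induces guanylate-binding and immunity-related GTPases. AAV carries single-stranded DNA, a cargo that TLR9 can sense in the endosome.

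Promoter sequence was available in the RefSeq table (GRCm38.p6) for 7 of the 9 genes, and is shown because these genes are grouped by a shared response. Entries for Ifi27l2a and Rtp4 were missing. Each window of 300 bases, from 250 before to 50 after the start site, was searched on both strands for the core of the interferon-stimulated response element, taken as GAAA, any 2 bases and GAAA. At least 1 match was present in 5 of the 7, against 3.44% of all 32851 promoters in the table. The runs below are 5′ to 3′ on the strand of the gene, with every match in capitals, and a match on the opposite strand reads TTTC, any 2 bases and TTTC.
Isg15, chr4:156200869-156200978, minus strand: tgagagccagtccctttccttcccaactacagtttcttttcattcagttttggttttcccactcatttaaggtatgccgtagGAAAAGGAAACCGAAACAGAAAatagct
Bst2, chr8:71537523-71537632, minus strand: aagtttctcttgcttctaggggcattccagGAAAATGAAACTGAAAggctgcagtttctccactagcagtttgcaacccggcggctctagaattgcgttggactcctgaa
Ifit3, chr19:34583369-34583478, plus strand: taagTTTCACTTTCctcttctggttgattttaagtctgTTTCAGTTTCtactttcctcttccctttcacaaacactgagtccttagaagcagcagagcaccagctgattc
Ifit1, chr19:34640784-34640813, plus strand: gTTTCACTTTCcagtctcagTTTCAGTTTC
Gbp2, chr3:142620594-142620623, plus strand: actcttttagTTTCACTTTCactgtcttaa

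Isg15 held 3 overlapping matches in 1 block and Bst2 held 2 that overlap, while the pair in Ifit1 and the pair in Ifit3 lay apart. All matches lay before the RefSeq start site, the nearest at -59 to -50 in Gbp2 and the farthest at -156 to -147 in Ifit3. In Bst2 a match to the core of the gamma-activated site, taken as TTC, any 3 bases and GAA, covered -136 to -128 and overlapped the first response element match. That motif, which reads the same on both strands, was in 8.30% of all promoters. Irf7 and Xaf1 had no match to either motif in this window. The run shown for Gbp2 overlaps an exon of Gbp2 in GENCODE vM21. That gene model begins at 142620602, before the RefSeq start and before the match, so the match lies within it. A match is a description of these letters and not a site shown to be bound.

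**Figure D1:**
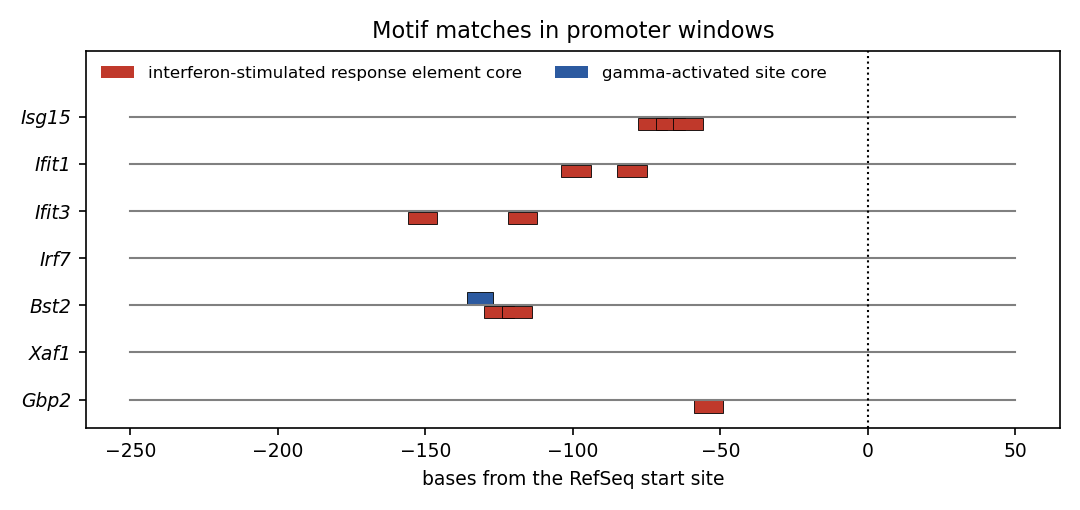
Positions of motif matches in the promoter windows of the 7 genes with a RefSeq entry, in bases from the start site (dotted line), with 1 grey line per gene. Red boxes are matches to the response element core and the blue box, in Bst2, is the match to the gamma-activated site core. All boxes lie between -156 and -50, and Irf7 and Xaf1 have none.

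Prr14, the gene knocked out in all mice, stood at 7.77, 5.73 and 4.84 CPM in the libraries labelled MEF2C and at 3.26, 3.83 and 3.98 in those labelled GFP (edgeR adjusted p = 0.856), and no library without the knockout was analysed here to check it against. Counts of the listed genes summed to between 3370833 and 3900617 per library. The muscle genes Acta1 and Ckm stood at 32731 normalised CPM or more in every library, so the defining markers of the labelled tissue were present. Mef2c itself was above the GFP libraries only in MEF2C replicate 3, at 371 CPM against 223 to 261, and MEF2C replicates 1 and 2 stood at 234 and 196, so directions hold for the libraries as labelled. The 12 myofibre markers summed to between 132874 and 145246 CPM in MEF2C libraries and between 166173 and 194840 in GFP libraries. The fast myosin light chain gene Mylpf was called lower (-0.79 on the log2 scale, adjusted p = 0.0189 by edgeR). That was 1 of the 12, where 0.0433% of all 9229 genes tested were called lower. In 4 of the 12 the groups did not overlap, with MEF2C below, where 5.33% of all genes tested had this. Fold changes were negative for 9 of the 12 and positive for 3, where 52.2% of all genes tested were positive. At an unadjusted p under 0.05 by edgeR there were 2 of the 12, where 5.71% of all genes tested had one. The sum of 10 neutrophil markers was 1230 CPM for MEF2C replicate 1, 75.3 for GFP replicate 3 and 3.15 to 5.73 for the remaining 4. The part of myofibre content in the results below was not tested.

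None of the 9 genes was called different between the virus groups. All 9 passed the filter on low counts, with 147 to 3538 reads each over the 6 libraries, and 0 had an adjusted p under 0.05 by edgeR's quasi-likelihood test, where 0.0758% of the 9229 genes tested were called (0.0325% higher and 0.0433% lower). At an unadjusted p under 0.05 there were 2 of 9, Ifi27l2a and Gbp2, where 5.71% of all genes tested had one. The groups overlapped for every one of the 9, where 11.1% of all genes tested had groups that did not overlap (5.75% with MEF2C above and 5.33% with MEF2C below). DESeq2, which called 0.463% of the 4752 genes it gave an adjusted p, called 0 of 6 and gave none for Isg15, Ifit1 and Irf7, and limma-voom called 0 of 9. The log2 fold changes, MEF2C over GFP, lay between -0.74 and 0.48 with a median of -0.10, beside 0.01 for all genes tested, and 2 of the 9 were positive, where 52.2% of all genes tested were. With library totals in place of TMM scaling the median of all genes moved to 0.14 and that of the 9 to 0.03. Positive were then 5 of the 9, and 6696 of all 9229 genes tested. Leaving out 1 library also turned the median of the 9, to 0.032 without GFP replicate 2 and 0.062 without GFP replicate 3, each with 5 of 9 positive, and it was -0.23 without GFP replicate 1. Without MEF2C replicate 1 and GFP replicate 3, the libraries with neutrophil markers, 0 of the 9 were called, the signs of Isg15 (0.13), Xaf1 (0.22) and Rtp4 (0.11) turned, and Gbp2 and Ifi27l2a stood at -0.62 and 0.68. A difference that misses the threshold does not show equal levels, and the 95% intervals (not adjusted for the number of genes) are given beside each gene.

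**Figure D2:**
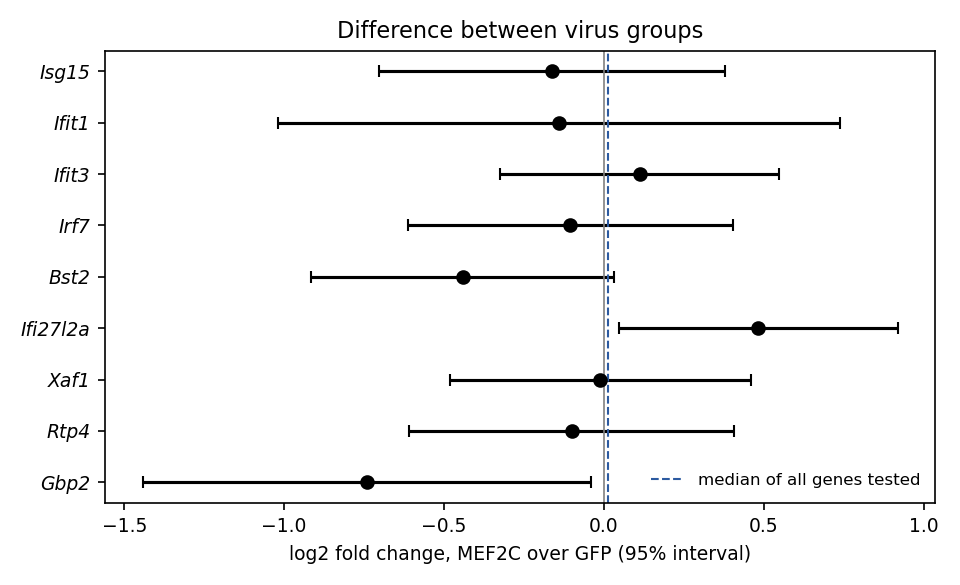
Log2 fold change of each of the 9 genes, MEF2C over GFP (points), with its 95% interval from edgeR's quasi-likelihood fit (bars), the grey line at 0 and the dashed line at the median of all genes tested, 0.01. The bars of Gbp2, which lies lowest at -0.74, and of Ifi27l2a, which lies highest at 0.48, leave out 0, and the other 7 include it.

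Irf7 (ENSMUSG00000025498, GRCm38 chromosome 7, 141262706 to 141266481, minus strand) encodes the transcription factor that amplifies type I interferon production. It stood at 11.9, 10.5 and 8.71 CPM under MEF2C-GFP virus and 9.48, 13.4 and 10.6 under GFP virus. The highest and lowest library were GFP replicate 2 and MEF2C replicate 3, and the groups overlapped throughout. Its log2 fold change came to -0.10 ± 0.24 (SE; edgeR adjusted p = 0.993), with a 95% interval of -0.61 to 0.40. Its spread within each group was near counting error, with a chi-square per degree of freedom of 0.999 in MEF2C and 1.19 in GFP, where counting error alone gives about 1. Its 3' end overlaps Phrf1 on the opposite strand in GENCODE vM21, and the use of strand in counting is not given, so reads of these neighbours may not be told apart.

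Isg15, a ubiquitin-like protein that is joined to other proteins during antiviral responses (ENSMUSG00000035692, chromosome 4, 156199424 to 156200818, minus strand), stood at 11.4, 10.5 and 11.1 CPM under MEF2C-GFP virus and 9.48, 10.2 and 17.0 under GFP virus. The other libraries were close together and GFP replicate 3 stood above them, with 64 reads against 32 in each of the other GFP libraries. Its Poisson interval in GFP replicate 3, 13.1 to 21.7 CPM, covers counting error only. MEF2C over GFP, the log2 difference was -0.16 ± 0.25 (edgeR adjusted p = 0.993; interval -0.70 to 0.38), and without GFP replicate 3 it turned to 0.16. GENCODE vM21 holds a second gene model, AC151275.1, 95.2% identical to Isg15 over 482 bases of its 756-base transcript, and the count is uncertain to that extent.

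The 2 IFIT genes lie close together on chromosome 19 and differed in their spread (r = 0.40 between them over the 6 libraries). Ifit1 (ENSMUSG00000034459, 34640871 to 34650009, plus strand) stood at 6.22, 2.74 and 9.92 CPM under MEF2C-GFP virus and 6.22, 9.25 and 5.57 under GFP virus. The lowest and the highest of the 6 libraries were both labelled MEF2C, with 11 and 41 reads in replicates 2 and 3. That 3.62-fold range within a group exceeded counting error, at a chi-square per degree of freedom of 8.31, against 1.86 in GFP. The log2 fold change of Ifit1 was -0.14 ± 0.40 (edgeR adjusted p = 0.993; interval -1.02 to 0.74). That interval was the widest of the 9, for the gene with the fewest reads, 147. Without MEF2C replicate 3 it was -0.64 and without MEF2C replicate 2 it was 0.21.

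Ifit3 (ENSMUSG00000074896, 34583531 to 34588731, plus strand) had the smallest ratio of highest to lowest library among the 9 genes. It stood at 15.3, 12.7 and 14.3 CPM under MEF2C-GFP virus and 11.9, 13.7 and 13.5 under GFP virus. The values of both groups ran into each other, and the chi-square per degree of freedom was 0.477 in MEF2C and 0.271 in GFP. On the log2 scale the fold change was 0.11 ± 0.20 (edgeR adjusted p = 0.993; interval -0.33 to 0.55). Ifit3b, a neighbouring copy, is 97.8% identical over 1700 of the 1745 bases of the Ifit3 transcript, so reads may be split between them. Ifit3b had 54 reads in all against 303 for Ifit3, and the summed level of both was 16.6, 13.9 and 17.9 CPM under MEF2C-GFP virus and 15.1, 15.6 and 16.7 under GFP virus.

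Xaf1, which binds the apoptosis inhibitor XIAP (ENSMUSG00000040483, chromosome 11, 72301629 to 72313733, plus strand), stood at 20.2, 23.9 and 20.1 CPM under MEF2C-GFP virus and 14.8, 22.97 and 26.8 under GFP virus. The MEF2C libraries lay within the range of the GFP libraries, whose replicate 1 was the lowest and replicate 3 the highest of all 6. The log2 fold change was -0.01 ± 0.22 (edgeR adjusted p = 0.998; interval -0.48 to 0.46), and its sign turned in 8 of the 17 alternative analyses. Rtp4, a receptor chaperone that also dampens interferon signalling (ENSMUSG00000033355, chromosome 16, 23520291 to 23614222, plus strand), had the same order of GFP libraries. It stood at 13.7, 15.9 and 14.5 CPM under MEF2C-GFP virus and 10.4, 17.9 and 19.1 under GFP virus. Again all MEF2C libraries lay inside the range of the GFP libraries. The log2 fold change of Rtp4 was -0.10 ± 0.24 (edgeR adjusted p = 0.993; interval -0.61 to 0.41). Its gene model overlaps Masp1 on the opposite strand and Gm45338 on its own strand, and 296 bases of its transcript are identical to one of Gm45338.

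Bst2, or tetherin, which holds budding enveloped viruses at the cell surface (ENSMUSG00000046718, chromosome 8, 71534255 to 71537456, minus strand), stood at 30.3, 42.1 and 42.6 CPM under MEF2C-GFP virus and 35.3, 62.2 and 58.8 under GFP virus. GFP replicates 2 and 3 were above all MEF2C libraries, while GFP replicate 1 lay among them. Its log2 fold change came to -0.44 ± 0.22 (edgeR adjusted p = 0.904; interval -0.91 to 0.03). It was -0.67 without GFP replicate 1 (adjusted p = 0.354), and -0.20 without MEF2C replicate 1 and GFP replicate 3 together. The spread of Bst2 in the GFP group, at a chi-square per degree of freedom of 13.9, was far above counting error.

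Gbp2, a guanylate-binding GTPase that attacks the vacuoles of intracellular pathogens and responds strongly to interferon-gamma (ENSMUSG00000028270, chromosome 3, 142620602 to 142638008, plus strand), had the lowest fold change of the 9. It stood at 13.2, 19.9 and 16.9 CPM under MEF2C-GFP virus and 16, 40.8 and 27.3 under GFP virus. As for Bst2, GFP replicates 2 and 3 lay above every MEF2C library and GFP replicate 1 lay inside the MEF2C range. MEF2C over GFP, the log2 difference was -0.74 ± 0.31 (unadjusted p = 0.0400 and adjusted p = 0.856 by edgeR; interval -1.44 to -0.04), which is 0.598 times the GFP level. Without GFP replicate 2 it was -0.38, and without GFP replicate 1 it was -1.04, still not called (adjusted p = 0.194). The closest other transcript, Gbp2b, is 83.8% identical over 1709 bases and had 13 reads in all, against 486 for Gbp2.

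Ifi27l2a, a small membrane protein of the IFI27 family (ENSMUSG00000079017, chromosome 12, 103442167 to 103443680, minus strand), had the highest fold change of the 9, and the most reads. It stood at 154, 248 and 145 CPM under MEF2C-GFP virus and 116, 129 and 147 under GFP virus. MEF2C replicate 2 stood far above the other 5 libraries, and MEF2C replicate 3 lay just under GFP replicate 3. On the log2 scale the fold change was 0.48 ± 0.20 (unadjusted p = 0.0328 and adjusted p = 0.852 by edgeR; interval 0.05 to 0.92), which is 1.40 times the GFP level. Without MEF2C replicate 2 it was 0.19 (unadjusted p = 0.237 by edgeR). With 3538 reads counting error was small, and the chi-square per degree of freedom within the MEF2C group was 71.7. The copy Ifi27l2b, 90.7% identical over 236 bases, had 0 reads. The related gene Ifi27, chosen after its values were seen, was also highest in MEF2C replicate 2, at 124 CPM against 64.0 to 84.6 in the other 5 libraries.

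**Figure D3:**
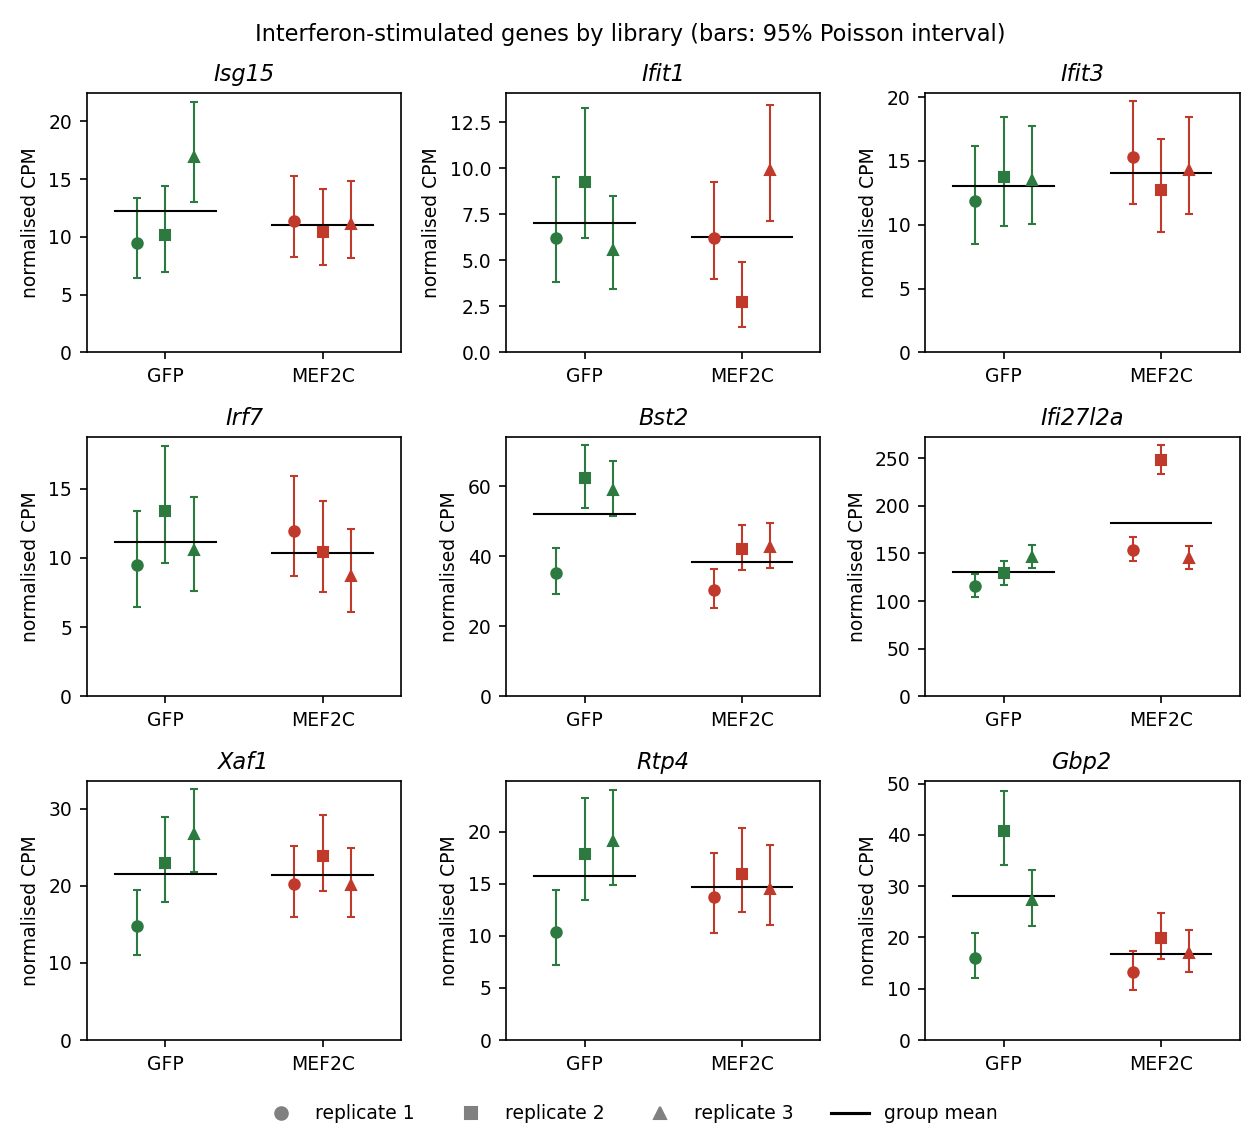
Normalised CPM of the 9 genes in each library (symbols by replicate, GFP green and MEF2C red), with the 95% Poisson interval of the read count (bars, counting error only) and the group mean (black line). The groups overlap in all 9 panels, and GFP replicate 1 lies below GFP replicates 2 and 3 in every panel except that of Ifit1. MEF2C replicate 2 stands out for Ifi27l2a and, downward, for Ifit1.

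The GFP libraries differed among themselves across these genes. GFP replicate 1 was the lowest of the 6 libraries for 5 of the 9 genes, and it was the lowest for 17.2% of all genes tested. GFP replicates 2 and 3 were each the highest for 3 of the 9, where they were the highest for 16.1% and 13.01% of all genes tested. The mean over the 9 genes of the deviation from each gene's mean log2 CPM was -0.29 in GFP replicate 1 and 0.26 and 0.20 in GFP replicates 2 and 3. In MEF2C replicates 1, 2 and 3 it was -0.11, -0.05 and -0.01, between the GFP values. Summed, the 9 genes came to 276, 386 and 283 CPM under MEF2C-GFP virus and 229, 319 and 325 under GFP virus. Ifi27l2a made up 40.4% to 64.2% of those sums. Without it the sums were 122, 138 and 138 under MEF2C-GFP virus and 113, 190 and 179 under GFP virus.

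Across the 6 libraries, 27 of the 36 pairs among the 9 genes had a positive correlation of log2 CPM, with a median r of 0.32. The highest was between Bst2 and Gbp2 (r = 0.95, n = 6) and the lowest between Ifit1 and Ifi27l2a (r = -0.79, n = 6). These values share libraries and depth and are a description only. Among 6992 other genes with a mean of at least 20 reads, those most like the mean profile of the 9 by Pearson r over the 6 libraries were Rbm7, Ahsa2, Zfp655, Idi1, Cd74, H2-D1, Vtn, Pon3, Tfb1m and Dnajc19, with r between 0.96 and 0.99. These r values are the highest picked from 6992 over only 6 libraries, so they too are a description only. Of these 10, H2-D1, a class I antigen-presenting chain, was in one of the interferon lists. Rbm7, the most alike and in none of those lists, stood at 8.81, 9.21 and 9.92 CPM under MEF2C-GFP virus and 7.70, 11.8 and 11.1 under GFP virus. Cd74, the class II invariant chain of antigen-presenting cells, stood at 109, 146 and 142 CPM under MEF2C-GFP virus and 80.6, 208 and 248 under GFP virus.

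The rest of the interferon pathway was read in lists. Of the secreted interferons, Ifnb1, Ifna2, Ifna4, Ifnk and Ifne had 0 reads in all 6 libraries, which allows up to 0.957 CPM in a library, and Ifng had 2 reads, both in GFP replicate 3. Of the 12 genes in the list of interferons and receptors 5 were tested, 0 were called, and the median log2 fold change was 0.20. Ifngr1, the ligand-binding chain of the interferon-gamma receptor, had 75.3 ± 9.11 CPM with MEF2C-GFP and 65.6 ± 9.18 with GFP (SD, n = 3 each), the order kept for the pairs that follow. Ifngr2, the other chain, varied widely within both groups. It stood at 9.33, 17.4 and 44.8 CPM under MEF2C-GFP virus and 34.1, 5.42 and 6.36 under GFP virus. MEF2C replicate 3 and GFP replicate 1 were high, the other 4 libraries low, and the groups overlapped. Ifnar1 of the type I receptor stood at 5.89 ± 2.34 against 4.86 ± 0.363 CPM, and Il10rb at 15.0 ± 1.24 against 16.9 ± 1.89 (SD, n = 3 per group).

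Signal transducers and sensors did not pass the test either. Among 12 tested genes of JAK-STAT signalling and its brakes 0 were called, 7 were negative and the median was -0.09. Stat2 stood at 2.59 ± 1.14 against 3.79 ± 0.213 CPM, Pias1, a brake on the pathway, at 14.6 ± 2.40 against 18.4 ± 0.911, and Jak1 at 44.5 ± 4.57 against 49.7 ± 11.8 (SD, n = 3 per group). The groups of Pias1 did not overlap, with MEF2C below, as for 5.33% of all genes tested. In the list of nucleic acid sensing, 14 of 24 genes were tested, 0 were called and the median was -0.10. Tlr9, the endosomal DNA sensor, had 0 reads in every library. Unc93b1, which carries the endosomal Toll-like receptors to their compartment, stood at 3.65 ± 1.32 against 8.11 ± 2.97 CPM, or -1.15 ± 0.37 as log2 fold change (edgeR adjusted p = 0.684). Traf6, an adaptor below those receptors, stood at 6.17 ± 1.06 against 2.79 ± 1.59 CPM, or 1.12 ± 0.39 as log2 fold change (edgeR adjusted p = 0.749). The groups of Traf6 did not overlap, with MEF2C above, as for 5.75% of all genes tested. Mavs, the adaptor of the RNA sensors, stood at 21.4 ± 5.27 against 28.1 ± 5.23 CPM, and Samhd1 at 12.9 ± 1.19 against 13.3 ± 3.30 (SD, n = 3 per group).

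Other targets of type I interferon lay near the median of all genes. Of 62 such genes with a row, 40 were tested, 0 were called, 23 were positive and the median log2 fold change was 0.04. The most abundant were Ifitm2, which hinders viral entry, at 424 ± 25.6 against 415 ± 35.3 CPM, and Ly6e at 341 ± 20.5 against 342 ± 77.3 (SD, n = 3 per group). Samd9l, a restriction factor, had the smallest p of the 40 (edgeR adjusted p = 0.808). It stood at 8.29, 5.98 and 9.68 CPM under MEF2C-GFP virus and 5.33, 4.15 and 4.51 under GFP virus, without overlap. Of the 40, 2 did not overlap with MEF2C above and 1 with MEF2C below, where 5.75% and 5.33% of all genes tested did. At an unadjusted p under 0.05 by edgeR there was 1 of the 40, where 5.71% of all genes tested had one. Ifitm1 stood at 3.52 ± 1.01 against 2.16 ± 0.718 CPM and Ifi205 at 24.4 ± 5.50 against 19.2 ± 2.07 (SD, n = 3 per group). The antiviral GTPase gene Mx1 had 1 read in each of 4 libraries and 0 in the other 2, and was not tested. With library totals in place of TMM, 31 of the 40 were positive, where 6696 of all 9229 genes tested were and their median was 0.14.

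Targets typical of interferon-gamma, the class to which Gbp2 belongs, had mostly negative fold changes, and none was called. Of 28 genes in this list 15 were tested, 0 were called, and 14 of the 15 were negative with a median of -0.51, beside 0.01 for all genes tested. At an unadjusted p under 0.05 there were 3 of the 15, namely Igtp, Irgm2 and Gbp4, where 5.71% of all genes tested had one. Igtp, an immunity-related GTPase, stood at 9.33, 13.7 and 13.6 CPM under MEF2C-GFP virus and 12.4, 29.0 and 30.2 under GFP virus (log2 fold change -0.97 ± 0.32; edgeR adjusted p = 0.749). GFP replicates 2 and 3 were high and GFP replicate 1 fell inside the MEF2C range. Irgm2, of the same GTPase family, stood at 12.8 ± 2.21 against 19.4 ± 3.53 CPM and Gbp4 at 4.72 ± 1.41 against 9.64 ± 4.99 (SD, n = 3 per group). Neither overlapped between groups, where 5.33% of all genes tested had MEF2C below without overlap.

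Tgtp2, the most abundant of that list, stood at 13.7, 20.7 and 19.1 CPM under MEF2C-GFP virus and 20.1, 75.3 and 37.4 under GFP virus. GFP replicate 2 stood apart, and GFP replicate 1 again lay within the MEF2C range (log2 fold change -1.30 ± 0.52; edgeR adjusted p = 0.879). Its near copy Tgtp1 may share its reads. Irgm1 had 16.9 ± 1.04 CPM with MEF2C-GFP and 23.4 ± 6.66 with GFP (SD, n = 3 each). GFP replicate 2 was the highest library for 11 of the 15 genes and GFP replicate 3 for 3. The list's median stayed negative whichever single library was left out, from -0.68 without GFP replicate 1 to -0.34 without GFP replicate 2, where 15 of 17 tested genes were negative. It was -0.37 with library totals, where the median of all genes was 0.14, and -0.42 without MEF2C replicate 1 and GFP replicate 3 together. Of the 16 genes of the list with a promoter entry, 11 held the response element core and 9 the gamma-activated site core.

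**Figure D4:**
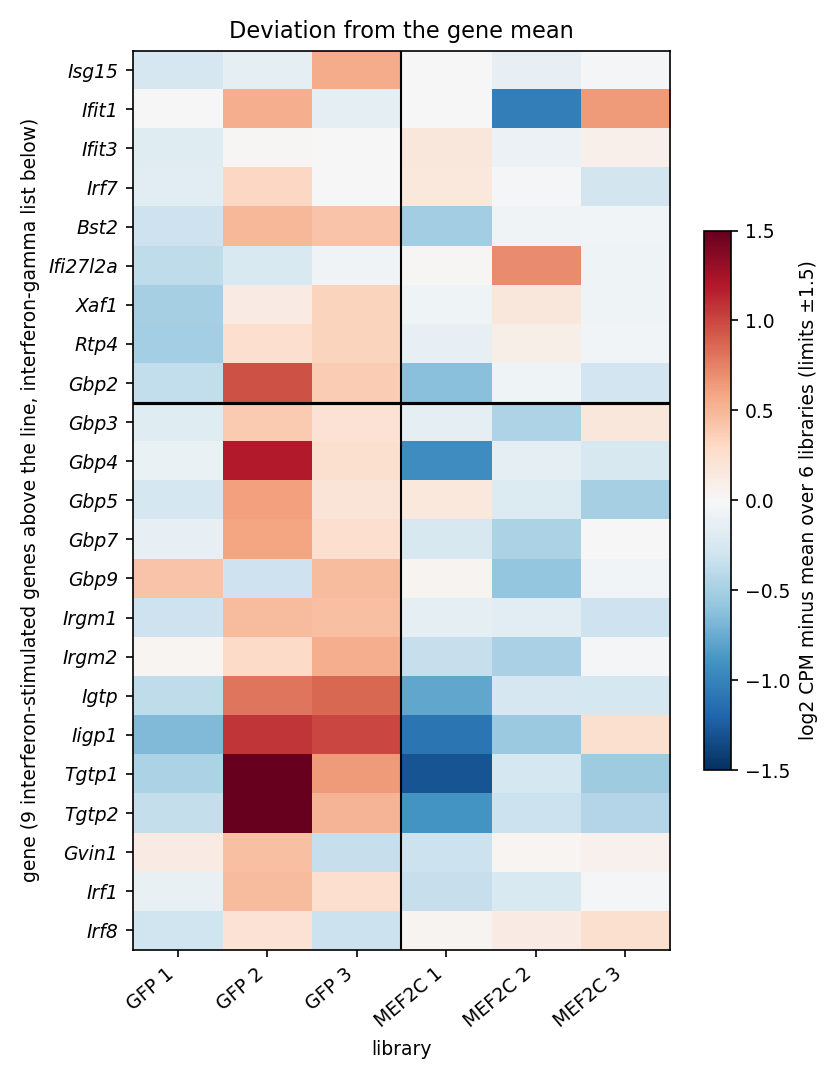
Log2 CPM of each gene minus its mean over the 6 libraries (colour, red above and blue below, limited to ±1.5), for the 9 interferon-stimulated genes above the line and 14 genes of the interferon-gamma list below it. GFP replicate 2 is dark red for Gbp4, Tgtp1 and Tgtp2, and GFP replicate 1 resembles the MEF2C libraries more than GFP replicates 2 and 3 in Bst2, Gbp2, Igtp and Tgtp2.

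Class I antigen presentation genes are also induced by interferons. Of 15 tested 0 were called, 14 were negative and the median was -0.21. H2-K1, H2-Q6 and H2-Q7, 3 of the 15, had an unadjusted p under 0.05 by edgeR, where 5.71% of all genes tested had one. Without GFP replicate 2 the median was -0.063 with 10 of 15 negative, and without GFP replicate 1 it was -0.39. With library totals it was -0.076 with 11 of 15 negative. There the median of all genes was 0.14, with 2533 of 9229 negative. B2m, the shared light chain, stood at 467, 514 and 443 CPM under MEF2C-GFP virus and 390, 663 and 598 under GFP virus. GFP replicate 1 was the lowest and GFP replicates 2 and 3 the highest of the 6 libraries. H2-D1, a heavy chain, had 205 ± 19.0 CPM with MEF2C-GFP and 239 ± 62.7 with GFP (SD, n = 3 each). Its GFP libraries held the same places as those of B2m. H2-K1, another heavy chain, stood at 36.3, 59.3 and 52.0 CPM under MEF2C-GFP virus and 55.7, 87.7 and 80.8 under GFP virus (edgeR adjusted p = 0.773). GFP replicate 1 lay between MEF2C replicates 2 and 3. H2-Q6 and H2-Q7, members of the Qa family whose near-identical relatives may share their reads, did not overlap between groups. Their log2 differences were -1.42 ± 0.51 and -0.65 ± 0.29 (adjusted p = 0.808 and 0.856 by edgeR). These were the 2 of 15 with MEF2C below without overlap, where 5.33% of all genes tested had this.

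Markers of other cell types were summed in each library. The immune markers tested were 14 of 18 for macrophages and monocytes, 2 of 13 for T and NK cells and 0 of 8 for B and plasma cells. For neutrophils 1 of 10 was tested, and for dendritic cells 2 of 10, among them the muscle gene Cox6a2. Of the immune markers tested 0 were called, where 0.0758% of all genes tested were. Most lymphocyte, neutrophil and dendritic markers were thus not tested. The 18 macrophage and monocyte markers came to 542, 485 and 470 CPM in total under MEF2C-GFP virus and to 337, 463 and 607 under GFP virus, and at most 1 of them, Ly6c2, was at 0 in a library. The 13 T and NK cell markers summed to between 6.53 and 14.2 CPM in MEF2C libraries and to 5.04, 14.4 and 35.8 under GFP virus. Between 2 and 9 of those 13 were at 0 in each library, and Cd3e had 2 reads in GFP replicate 3, 1 in MEF2C replicate 2 and 0 elsewhere. Both sums were lowest in GFP replicate 1 and highest in GFP replicate 3, as were Xaf1 and Rtp4, while the interferon-gamma list was highest in GFP replicate 2. Dendritic cell markers apart from Cox6a2, a muscle gene, summed to between 8.23 and 18.4 CPM in all libraries, and Siglech of plasmacytoid cells had at most 2 reads. Markers of B and plasma cells summed to 31.1 CPM in MEF2C replicate 1 and to 12.5 or less elsewhere. Endothelial markers summed to between 804 and 1112 CPM and fibroblast markers to between 1964 and 2525, with overlapping groups. The part of these cells in the levels of the 9 genes was not tested, and in bulk tissue fewer cells of a type and less RNA per cell cannot be told apart.

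**Figure D5:**
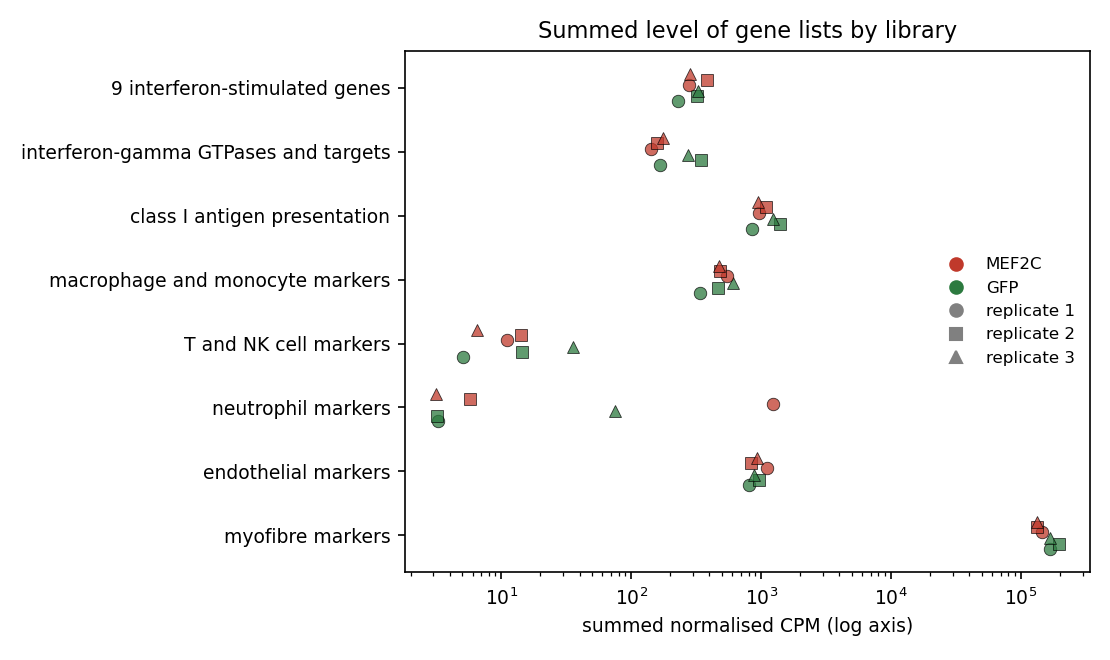
Summed normalised CPM of 8 gene lists in each library (log axis; GFP green, MEF2C red, symbols by replicate). The interferon-gamma list reaches 343 and 272 in GFP replicates 2 and 3 and stays at 175 or less in the other 4 libraries, and neutrophil markers stand out in MEF2C replicate 1 at 1230.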

How the data were processed

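Counts per gene from 6 Oxford Nanopore PCR-cDNA libraries were analysed. The authors deposited read counts and CPM per gene and library, per the file headers, and only the counts entered the tests. The CPM columns deposited by the authors were left aside. minimap2, GRCm38 and DESeq2 1.6.3 are named by the submitters' processing notes without roles. Counting tool, strand use and read filters: not given in the sources used here. Reads carry no molecular identifiers, so intervals and floors (3 reads for a count of 0) cover counting error only. Of the table's rows, 30 named no gene and were left out.

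The test was edgeR's quasi-likelihood test (version 4.0.16, R 4.3.3; robust dispersion, filter by group, TMM, no covariate), with Benjamini-Hochberg adjustment over 9229 genes and calls at an adjusted p under 0.05. Standard errors came from the F statistic, intervals used its t quantile, and normalised CPM were computed on TMM-scaled totals. The fit was also run on simulated data with a common dispersion for all genes, a simpler setting than the uneven spread of these data. The 9 genes, the lists and the rule for named genes (the 9 genes, Mef2c and Prr14, of each pathway list the 3 smallest p and the 2 most abundant, of each marker list the 2 most abundant, and the 10 most alike) were chosen with earlier results of these data known. Marker genes are given mainly as sums; Ifi27, Mylpf and genes at or near 0 fall outside the rule and were chosen after their values were seen. Near copies were sought with blastn 2.17.0 among GENCODE vM21 transcripts, where 22022 of 22036 identifiers matched. Alternatives were DESeq2 1.42.0, limma-voom (limma 3.58.1), other scalings and filters, non-robust dispersion, a prior count of 0.5, a replicate block and leaving out each library. Leaving out MEF2C replicate 1 and GFP replicate 3 together was chosen after seeing the data. A gene of the pathway lists is not reported here.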

Additional observations from a re-analysis of the deposited data

How the results depend on the processing

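Of the 9 genes and of the 6 pathway lists, 0 genes were called under any of the 16 alternatives for counts. The count of 7 genes called over all genes became 4 when library totals, not the test, left out the 50 most abundant genes. It was 35 with no filter, 3 with the strict filter, 22 by DESeq2, 3 by limma-voom and 2 with the replicate block. With non-robust dispersion it was 0 (557 at an unadjusted p under 0.05 by edgeR). Without MEF2C replicate 1 and GFP replicate 3 together it was also 0 (328 at an unadjusted p under 0.05 by edgeR). It lay between 0 and 22 when single libraries were left out. The deviations of same-numbered libraries correlated at r = -0.23, 0.05 and -0.25 for numbers 1, 2 and 3. Between MEF2C replicate 3 and GFP replicate 1 the r was 0.32. What the numbers stand for is not given, and these values cannot show whether same-numbered libraries share a batch. With the block the log2 fold change of Xaf1 turned to 0.017. Of the 9 genes, 3 then had an unadjusted p under 0.05 by edgeR, and 0 were called.

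Directions of Ifit3, Bst2, Ifi27l2a and Gbp2 held under all 17 alternatives. With library totals the sign turned for Irf7 (0.025), Xaf1 (0.12) and Rtp4 (0.036), and with limma-voom for Xaf1 (0.022). Leaving out single libraries gave between -0.33 and 0.16 for Isg15, -0.64 and 0.21 for Ifit1, -0.22 and 0.039 for Irf7, -0.23 and 0.18 for Xaf1 and -0.34 and 0.062 for Rtp4. Without MEF2C replicate 1 and GFP replicate 3 together Isg15 stood at 0.13, Xaf1 at 0.22 and Rtp4 at 0.11. The cause of these turns was not tested. Depth was 11 to 64 reads per library for Ifit1, Isg15 and Irf7, and what part of their intervals it sets was not tested.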
